A study of Mus musculus with 3 samples.

Results

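The genes that move protons, bicarbonate and chloride across membranes were examined in the heart of wild-type (genotype WT) male mice at 12 weeks of age. All genes of the deposited count table whose symbol begins with Slc4a, Slc9a, Slc12a, Slc26a or Clcn, or with Car and a digit, were taken, which gave 61 of 16587 genes. The rule used symbols alone, though it was set with earlier results of these data known. Poly(A) RNA was sequenced in 3 libraries of 1 group, numbered 1 to 3, so no contrast between conditions was possible. The sources used here give no strain. Whether each library is a different animal is not stated, so every p-value reflects the spread of these 3 libraries, and that spread may be technical.

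A beating heart muscle cell produces acid and carbon dioxide without pause. Sodium/proton exchangers (SLC9) and sodium-coupled bicarbonate transporters (SLC4) bring pH back up after an acid load, chloride/bicarbonate exchangers (SLC4 and SLC26) bring it down after an alkaline load, and carbonic anhydrases interconvert carbon dioxide and bicarbonate beside them. Cation-chloride cotransporters (SLC12) set cell chloride and volume. CLC proteins are chloride channels at the cell surface or chloride/proton exchangers in endosomes and lysosomes.

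Library totals lay between 24914479 and 26398140 counts. For a gene at 0 counts a true count of up to 3 is allowed, which is 0.114 to 0.12 CPM (counts scaled so that every library has the same total) and covers counting error only. All 10 cardiomyocyte markers were present at 1 CPM or more in every library, with Myh6 highest at 23308 CPM, so the libraries carried the labelled tissue. Among 11 erythroid markers 9 passed the filter of low counts and were tested. Of these 6 differed between libraries by edgeR after adjustment over all genes. Over all 12521 genes tested 0.575% were called, the share to set beside each of these lists. The summed level of all 11 erythroid markers was 2301, 1110 and 1764 CPM in libraries 1, 2 and 3. Of 10 liver genes 5 were tested and all 5 were called, and the list summed to 159.6, 15.6 and 16.6 CPM. Of 8 mesothelial genes only 2 were tested, with 0 called, and the list summed to 26.8, 18.7 and 35.3 CPM. The others were removed by the filter and could not be called, among them Msln with 0, 0 and 107 counts. Of 8 fibroblast markers, all tested, 2 were called, Col3a1 (92.5, 137.5 and 177.4 CPM) and Col1a1 (45.1, 47.7 and 79.8 CPM). Of 9 macrophage and osteoclast-like markers, all tested, Gpnmb alone was called, at 33.3, 7.84 and 12.0 CPM. In whole tissue, fewer cells of a type and less RNA per cell cannot be told apart.

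A total of 39 of the 61 genes (63.9%) reached 1 CPM in every library and are called detected below, against 71.3% of all genes in the table. Detection was 7 of 9 in the Slc4a family, 8 of 11 in Slc9a, 6 of 8 in Slc12a, 4 of 9 in Slc26a, 7 of 8 in Clcn and 7 of 16 among carbonic anhydrases. All 61 together took 0.164 ± 0.00456% of the counts (SD, n = 3), and the median member stood at 4.59 CPM against 11.4 CPM for the median gene of the table. Levels of different genes are compared as TPM, in which each count is divided by the exon length of its gene (the union of annotated exons) and every library is scaled to the same sum. Slc9a3r2 (278.2 CPM), Slc4a3 (253.6 CPM), Slc12a7 (221.4 CPM) and Car14 (205.1 CPM) had the most counts, and Slc12a4 followed at 74.8 CPM.

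**Figure D1:**
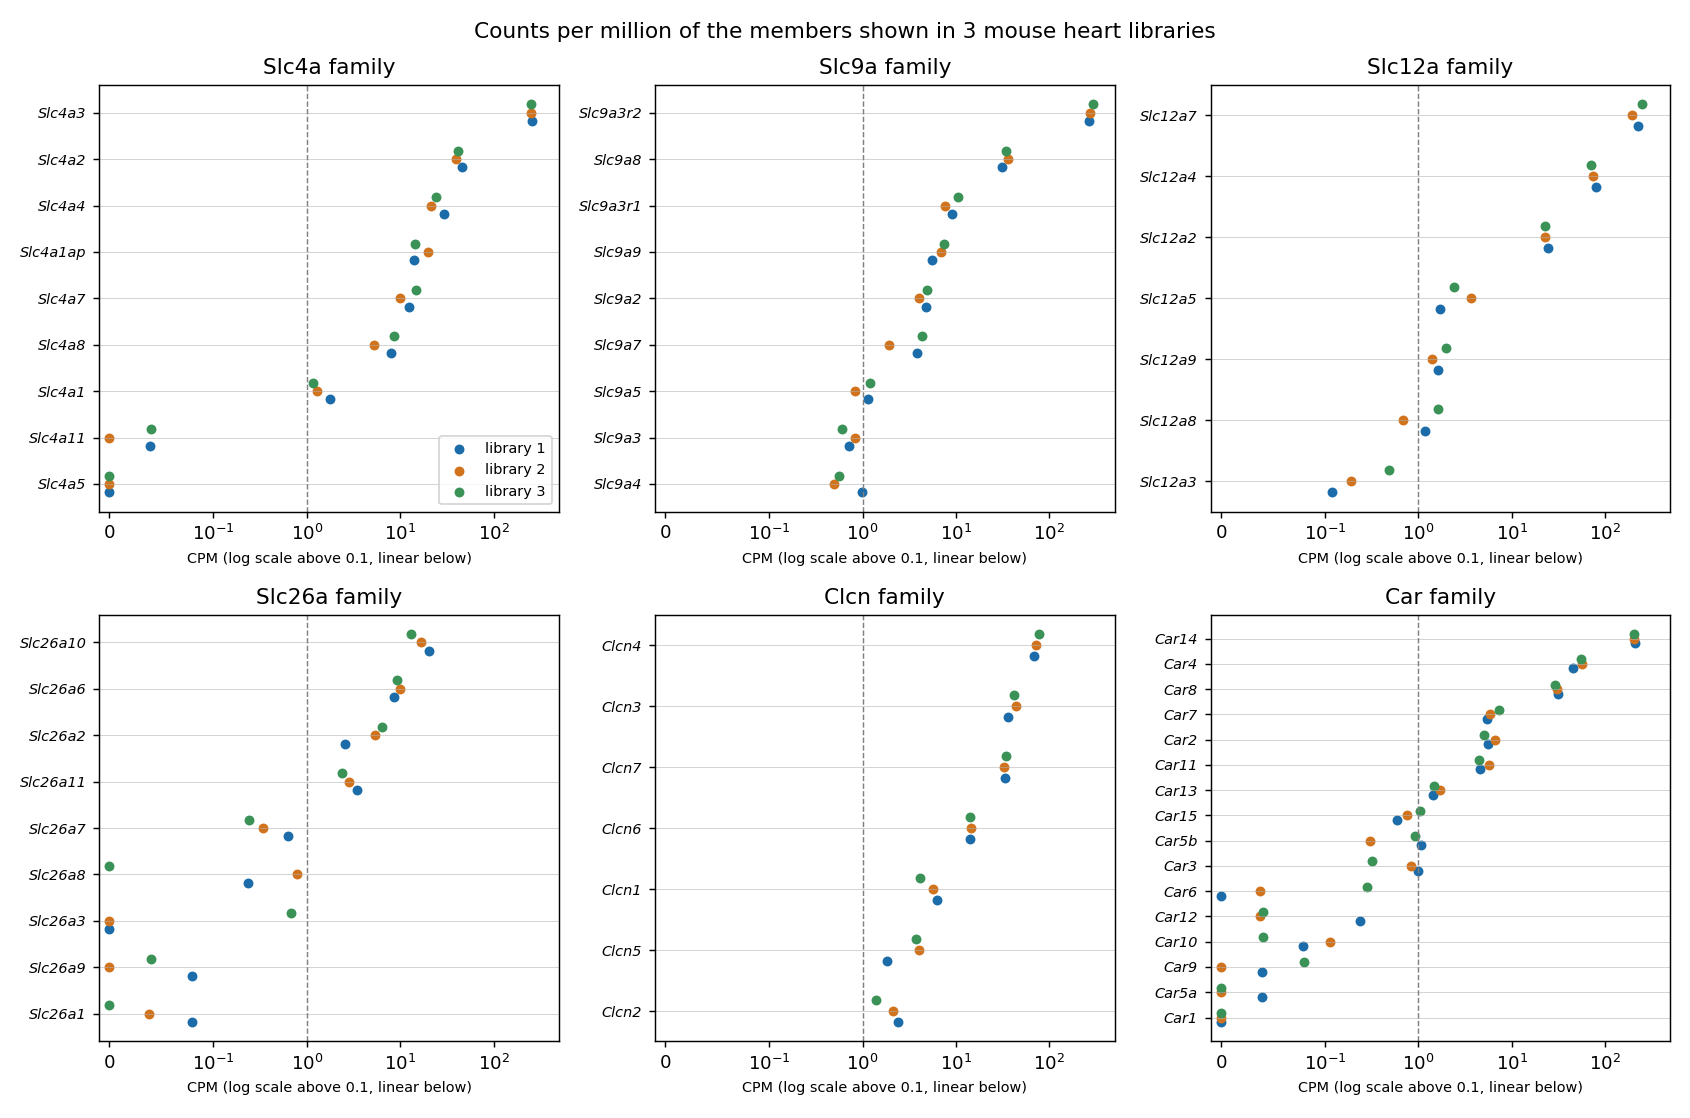
CPM of 57 of the 61 genes, 1 panel per family, with the horizontal axis logarithmic above 0.1 CPM and linear below, and 1 point per library. The dashed line marks 1 CPM; Slc4a3, Slc9a3r2, Slc12a7 and Car14 stand to the far right of their panels and Car1 and Slc4a5 at 0.

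Among chloride/bicarbonate exchangers, which load the cell with acid, Slc4a3 was far above the others. Slc4a3, the anion exchanger AE3 known from heart and brain, stood at 258, 254 and 249 CPM in libraries 1, 2 and 3. Slc4a2, the widely expressed AE2, stood at 46.3, 39.7 and 41.4 CPM. Exons of Slc4a2 and Fastk on the opposite strand overlap by 1141 bases, 13.7% of the exon length of Slc4a2, and Fastk was at 399.5 ± 20.7 CPM, so without strand reads there cannot be told apart. The groups of values did not overlap, and Slc4a3 was the higher in each library. Per kilobase Slc4a3 exceeded Slc4a2 5.79-fold, a log2 ratio of 2.53 ± 0.10 (SD, n = 3, limma adjusted p = 4.86e-06). With the longest transcript as the length this log2 ratio was 1.83. Slc4a1, the band 3 protein of red cells, had 45, 34 and 29 counts and was lowest of the 6 detected transporters of its family, at 102.6-fold below Slc4a3 per kilobase. Its edgeR unadjusted p between libraries was 0.61, and the part of red cells in its counts was not tested.

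The sodium-coupled bicarbonate transporters, which remove acid, were led by Slc4a4, the electrogenic cotransporter NBCe1, at 29.3, 21.3 and 24.1 CPM. Slc4a7, the electroneutral NBCn1, stood at 12.4, 9.92 and 14.9 CPM, and Slc4a8, a sodium-driven chloride/bicarbonate exchanger, at 8.06, 5.27 and 8.55 CPM. Library 2 was lowest for all 3 of these genes. Per kilobase Slc4a2 exceeded Slc4a4 by a log2 ratio of 1.16 ± 0.12 (adjusted p = 0.000227), and Slc4a4 exceeded Slc4a7 by 1.502 ± 0.29 (adjusted p = 0.000136). The step from Slc4a7 to Slc4a8 was smaller, at 0.55 ± 0.15 (adjusted p = 0.00936), and without library 2 it no longer passed 0.05 (0.49, adjusted p = 0.107), while with the longest transcript it was 1.31. Slc4a5, a further electrogenic cotransporter, had 0 counts in all 3 libraries, and Slc4a11 had 1, 0 and 1. Summed over the class, the SLC4 chloride/bicarbonate exchangers (Slc4a1, Slc4a2 and Slc4a3) reached 104.6 ± 3.04 TPM and sodium-coupled bicarbonate transporters 11.1 ± 1.90 TPM. The ratio was 8.67, 11.4 and 8.83 in libraries 1, 2 and 3. SLC26 exchangers were summed with their own family. All 15 pairs of the 6 detected Slc4a transporters differed per kilobase.

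Among sodium/proton exchangers, Slc9a8 of the Golgi was at 31.0, 36.0 and 34.2 CPM, below Slc4a3 in each library. The step down from Slc9a8 to Slc9a9 of late endosomes was a log2 ratio of 1.68 ± 0.15 per kilobase (adjusted p = 3.85e-05).

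Slc9a9 stood at 5.49, 6.86 and 7.47 CPM, Slc9a7 of the trans-Golgi network at 3.83, 1.93 and 4.33 CPM, and Slc9a2, a surface exchanger known from epithelia, at 4.82, 4.05 and 4.90 CPM. Neither step between neighbours passed, with adjusted p = 0.139 for Slc9a9 against Slc9a7 and 0.153 for Slc9a7 against Slc9a2, while Slc9a9 exceeded Slc9a2 by 0.81 ± 0.29 (adjusted p = 0.00318). The former passed without library 1 (0.73, adjusted p = 0.00244) and with no length correction (1.04, adjusted p = 0.00902), and without library 2, where Slc9a7 was lowest, the latter did (0.62, adjusted p = 0.0404). The calls made without a library rest largely on spread pooled over all pairs, so they do not show replication. Slc9a3 (18, 22 and 15 counts), Slc9a4 (25, 13 and 14) and Slc9a5 (29, 22 and 30), known from kidney and gut, stomach and brain, did not reach 1 CPM in every library. The 4 organellar exchangers summed to 36.4 ± 4.21 TPM and the 5 surface exchangers to 19.9 ± 3.39 TPM.

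The gene with the highest length-corrected level of all 61 was no transporter. Slc9a3r2, the scaffold NHERF2 that tethers membrane proteins through PDZ domains, stood at 302, 304 and 340 TPM, the rank of 465 among genes with a length. Its relative Slc9a3r1 (NHERF1) stood at 14.1, 11.5 and 16.8 TPM. Slc4a1ap (kanadaptin), which the symbol rule also takes in, was at 13.9, 20.001 and 14.2 CPM. Slc9a3r2 alone made up 81.8% of the TPM of the genes whose symbol begins with Slc9a.

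Potassium-chloride cotransporters, which carry chloride out of the cell, were prominent. Slc12a7 (KCC4) stood at 223, 193 and 248 CPM and Slc12a4 (KCC1) at 80.4, 73.8 and 70.3 CPM. Slc12a7 had the most counts in each library, yet per kilobase it was not separated from Slc12a4, with a log2 ratio of Slc12a4 over Slc12a7 of 0.01 (95% interval -0.37 to 0.38, adjusted p = 0.973). That order rested on the length used, since Slc12a7 was higher with the longest transcript (-0.68, adjusted p = 0.00496) and with no length correction (-1.56, adjusted p = 7.78e-05). Slc12a5 (KCC2), known from neurons, was at 1.70, 3.67 and 2.41 CPM.

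Slc12a2, the sodium-potassium-chloride cotransporter NKCC1 that brings chloride into the cell, stood at 24.3, 22.7 and 22.6 CPM, close together in all libraries. Per kilobase it exceeded Slc12a5 by a log2 ratio of 2.67 ± 0.60 (adjusted p = 4.93e-05). Slc12a3, the thiazide-sensitive cotransporter of the kidney, had 3, 5 and 12 counts. Summed TPM of the potassium-chloride cotransporters was 18.2, 17.7 and 19.5 times that of the sodium-coupled ones in libraries 1, 2 and 3. Slc12a9 (1.62, 1.40 and 1.97 CPM) was detected, at a level not separated from that of Slc12a5 (adjusted p = 0.973), and Slc12a8 had 30, 18 and 41 counts and fell short of 1 CPM in library 2.

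**Figure D2:**
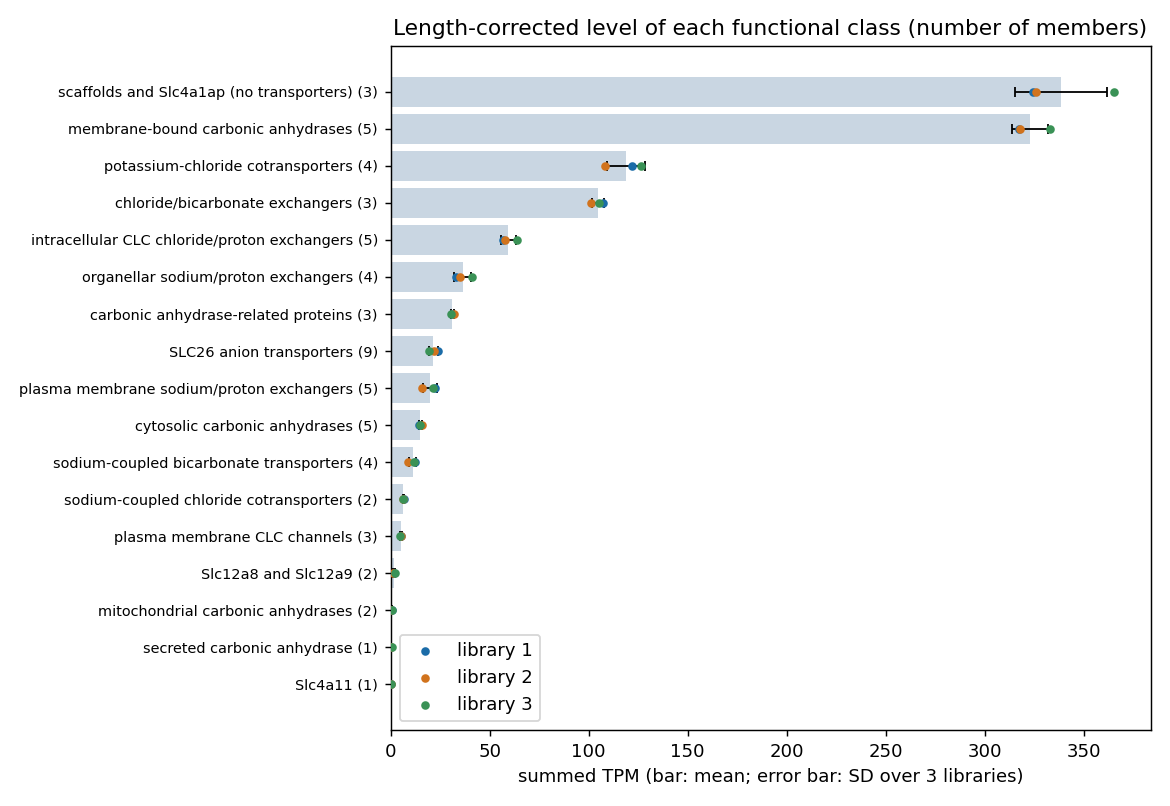
Summed length-corrected level (TPM) of each functional class, with the number of its members in brackets, as bars from 0 for the mean, error bars for the SD over 3 libraries and 1 point per library. Membrane-bound carbonic anhydrases (322.6 TPM), potassium-chloride cotransporters (118.8 TPM) and SLC4 chloride/bicarbonate exchangers (104.6 TPM) are the highest of the transporter and enzyme classes.

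SLC26 anion transporters summed to 21.6 ± 2.30 TPM, with 4 of 9 detected. Slc26a10 stood at 20.3, 16.7 and 12.96 CPM, highest in library 1 and lowest in library 3, and Slc26a6, an anion exchanger that carries chloride, bicarbonate and oxalate and is known in mouse heart, at 8.57, 9.89 and 9.15 CPM. Exons of Slc26a10 and B4galnt1 on the opposite strand overlap by 715 bases, 17.8% of the exon length of Slc26a10, and reads of the 2 cannot be told apart there without strand. B4galnt1 itself was at 3.24 ± 0.68 CPM. Slc26a10 exceeded Slc26a6 per kilobase by 1.26 ± 0.38 (adjusted p = 0.00059), and Slc26a6 exceeded Slc26a11 by 1.10 ± 0.32 (adjusted p = 0.000846). Slc26a11, a sulfate transporter, was at 3.44, 2.80 and 2.41 CPM.

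Slc26a2, the sulfate transporter that cartilage depends on, was the member with the largest ratio between libraries among those detected, at 2.57, 5.38 and 6.34 CPM, a 2.47-fold range. Slc26a11 exceeded it per kilobase by 1.14 ± 0.94 (adjusted p = 0.0173), and without library 3 this no longer passed (1.52, adjusted p = 0.0679). The other 5 had few counts. Slc26a3, a chloride/bicarbonate exchanger known from gut, had 0, 0 and 17 counts, all in library 3. Of 8 mesothelial markers Msln (0, 0 and 107 counts), Lrrn4 (0, 0 and 42), Krt19 (0, 0 and 29) and Upk1b (0, 0 and 20) likewise had counts in library 3 alone, and Upk3b had 2, 0 and 212. Gpm6a had 154, 97 and 210, while Wt1 (506, 395 and 252) and Krt8 (17, 2 and 8) were highest in library 1. The part of that tissue in the Slc26a3 counts was not tested. Slc26a8, known from testis, had 6, 21 and 0 counts, Slc26a7 had 16, 9 and 6, Slc26a1 had 2, 1 and 0, and Slc26a9 had 2, 0 and 1.

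Summed over the class, CLC proteins of intracellular membranes stood well above the channels of the cell surface, though Clcn5 did not. Clcn4, a chloride/proton exchanger of endosomes, was at 69.1, 71.1 and 77.9 CPM, Clcn3, its close relative, at 36.1, 43.5 and 41.6 CPM, and Clcn7, the exchanger of lysosomes, at 33.1, 32.5 and 34.0 CPM. Clcn6 of late endosomes was steady at 14.3, 14.5 and 14.1 CPM. Per kilobase the order was Clcn4, Clcn7, Clcn6 and Clcn3, with Clcn4 above Clcn7 by 0.43 ± 0.07 (adjusted p = 0.0211), which was lost without library 2 (0.43, adjusted p = 0.152) and with all pairs of at least 1 count (adjusted p = 0.0789). Clcn7 exceeded Clcn6 by 1.38 ± 0.05 (adjusted p = 7.69e-05). Clcn6 and Clcn3 were not separated (0.03, adjusted p = 0.841), and Clcn3 was the higher with the longest transcript (-0.84, adjusted p = 0.00122) and with no length correction (-1.49, adjusted p = 6.15e-05).

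Clcn5, known from the endosomes of kidney tubules, was at 1.82, 4.02 and 3.69 CPM, lowest in library 1. Of the surface channels, Clcn1, the main chloride channel of skeletal muscle, was at 6.203, 5.64 and 4.13 CPM and Clcn2 at 2.37, 2.12 and 1.40 CPM. Of the fast skeletal muscle list, with 9 genes in the table, Mybpc2 (859, 769 and 878 counts) and Tnni2 (54, 58 and 51) were detected, and the list summed to 37.9, 33.1 and 38.7 CPM. Its myosin Myh1 had 0 counts throughout and Pvalb had 1, 2 and 2. The part of such muscle in the Clcn1 counts was not tested. Clcn1 exceeded Clcn2 per kilobase by 1.59 ± 0.09 (adjusted p = 3.88e-05). Clcn1 also exceeded the intracellular Clcn5, by 1.88 ± 0.84 (limma adjusted p = 0.00112), and Clcn2 and Clcn5 were not separated (0.29, adjusted p = 0.437). The intracellular exchangers summed to 59.4 ± 3.75 TPM and the surface channels to 5.13 ± 0.53 TPM, a ratio of 10.3, 10.8 and 14.1.

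Among carbonic anhydrases 1 enzyme led by a wide margin. Car14, a membrane-anchored enzyme whose active site faces outward, stood at 211, 202 and 202 CPM. Car4, tied to the outer membrane by a lipid anchor and known in the heart from endothelium and muscle cells, stood at 45.2, 56.4 and 54.8 CPM. Car14 took 65.5% of the TPM of the family and exceeded Car4 3.05-fold per kilobase, a log2 ratio of 1.61 ± 0.21 (adjusted p = 5.95e-05). An exon overlap of 445 bases with Aph1a on the opposite strand covers 17.5% of the exons of Car14, and Aph1a was at 58.0 ± 4.59 CPM.

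The third gene in order, Car8, belongs to the carbonic anhydrase-related proteins, which lack the enzyme activity because histidines that hold the zinc ion are missing. The stretch around these histidines is shown for the 7 detected members, since it separates the enzymes from the related proteins. Each line gives coding bases from GENCODE M21 (build GRCm38), 5′ to 3′, and capitals mark the codons aligned to a neighbouring pair of zinc-holding histidines in Car2.
Car14: gcccagctcCACctgCACtggggtcag
Car4: gtacagttgCACctgCACtggtcaaat
Car2: atccagtttCACtttCACtggggctca
Car7: aagcagctcCACttcCACtggggcaag
Car13: cggcagttcCATttgCACtgggggtca
Car8: tatgaagttAGAtttCACtggggaaga
Car11: agtgaactgCGCctgCTAtttggagct
Both codons stand for histidine in the first 5 lines, the second alone does in Car8, and neither does in Car11. Car10, not detected with 2, 3 and 1 counts, also lacks the first. The remaining 8 members of the family, all below the detection limit, carry histidine at both.

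Car8 stood at 31.1, 30.6 and 29.0 CPM, and Car4 exceeded it per kilobase by 1.75 ± 0.21 (adjusted p = 3.88e-05) or, with the longest transcript, by 2.40. Car8 in turn exceeded Car11, also a related protein without activity, by 1.63 ± 0.17 (adjusted p = 4.61e-05). The enzymes of the cytosol were low. Car2, abundant in red cells, was at 5.61, 6.59 and 5.10 CPM, Car7, known from brain and muscle, at 5.41, 5.87 and 7.22 CPM and Car13 at 1.42, 1.70 and 1.49 CPM. Car2 was lowest in library 3 and highest in library 2, and the part of red cells in its counts was not tested. Car11 (4.62, 5.64 and 4.42 CPM) and Car2 were not separated (0.09, adjusted p = 0.526). Car2 passed over Car7 narrowly (0.49 ± 0.36, adjusted p = 0.0365), and not without library 1 (adjusted p = 0.0783) or library 2 (adjusted p = 0.228), with the longest transcript (0.025, adjusted p = 0.892), with no length correction (-0.095, adjusted p = 0.623) or with all pairs of at least 1 count (adjusted p = 0.0954).

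Car1, abundant in mature red cells, had 0 counts throughout. Car3, known from skeletal muscle and fat, had 25, 22 and 8 counts. The 11 adipocyte markers summed to 1602, 1812 and 1668 CPM, and 4 of them were detected. Most of this sum was Plin4 and Fabp4, and Fabp4 is also on the endothelial marker list. Cidea (713, 1033 and 743 counts) and Pparg (757, 713 and 615) were detected too. Of the genes of the adipocyte list that were not, Adipoq had 5, 6 and 9 counts, Plin1 had 1, 5 and 15, and Ucp1 had 0 throughout. Cfd (23, 16 and 36 counts), Cidec, Retn and Lep were not detected either. The part of fat in the Car3 counts was not tested. Of the mitochondrial enzymes Car5b had 27, 8 and 23 counts and Car5a, the liver form, 1, 0 and 0. The hypoxia-induced Car9 had 1, 0 and 2 counts, Car12 had 6, 1 and 1, Car15 had 15, 20 and 26, and the salivary Car6 had 0, 1 and 7. Membrane-bound enzymes summed to 322.6 ± 9.07 TPM and those of the cytosol to 14.97 ± 0.753 TPM, a ratio of 22.3, 20.2 and 22.3. Car13, Car1, Car3 and Car2 lie next to each other in that order on chromosome 3 in RefSeq (GRCm38.p6), and none of the 4 exceeded 6.59 CPM in any library.

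**Figure D3:**
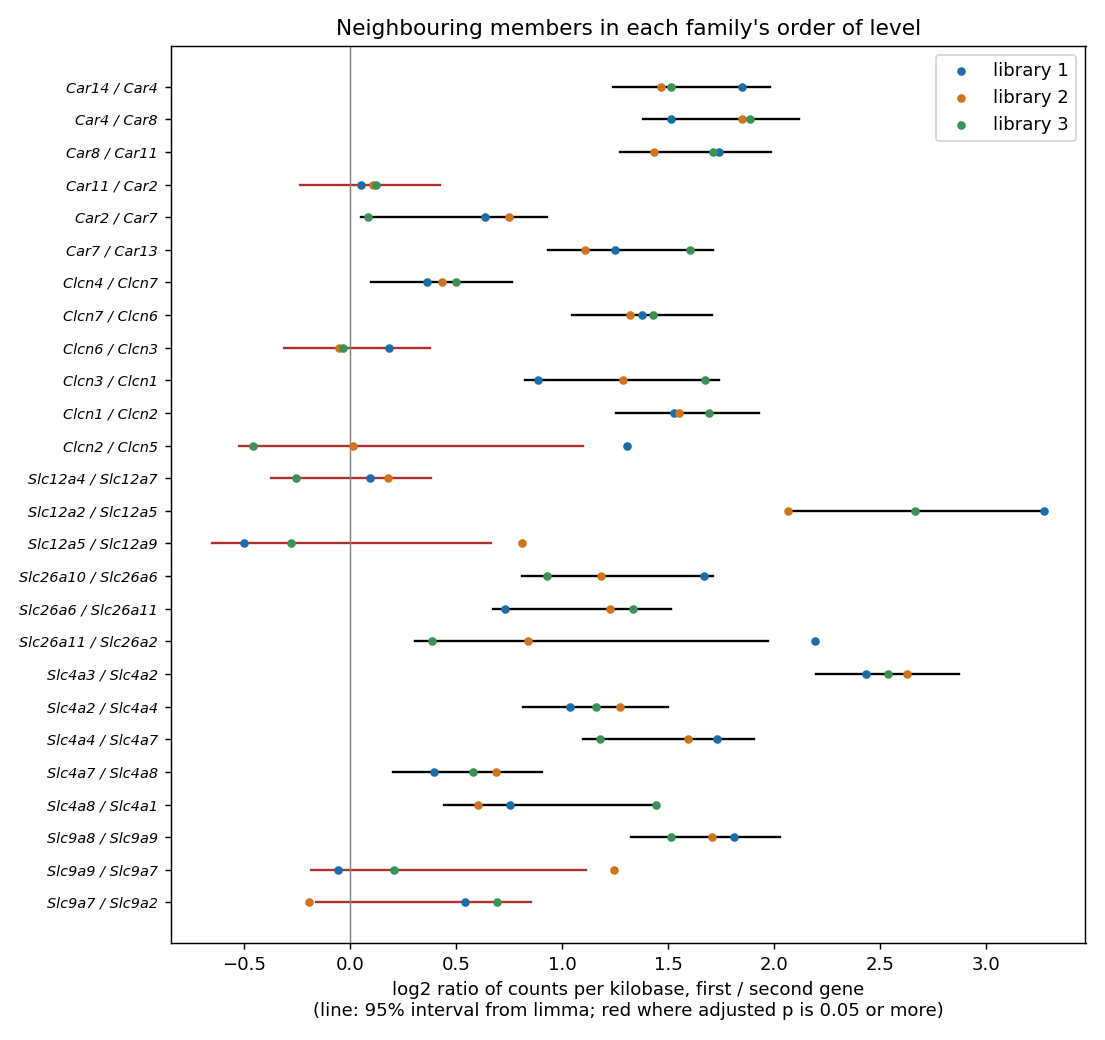
Log2 ratio of counts per kilobase between neighbours in the order of level of each family, with 1 point per library and lines for the 95% interval from limma. The plot shows 26 pairs, and lines in red, 7 of them, mark neighbours whose adjusted p was 0.05 or more, such as Slc12a4 / Slc12a7 and Clcn6 / Clcn3.

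Over the 6 families, 93 pairs of detected transporters, channels and enzymes were compared within libraries, and 85 (91.4%) differed per kilobase by limma after adjustment over all 93. Against a difference of 2-fold 69 passed. Equal levels of any 2 genes are a narrow standard, and a call shows an order of levels and nothing particular to the pair. In the order of level, 22 of 30 neighbouring pairs were separated, including all 5 in Slc4a and all 3 in Slc26a, against 2 of 5 in Slc9a. The first member exceeded the last by a log2 ratio of 6.90 among carbonic anhydrases (Car14 over Car13), 6.68 in Slc4a (Slc4a3 over Slc4a1), 5.72 in Slc12a (Slc12a4 over Slc12a9), 5.01 in Clcn (Clcn4 over Clcn5) and 3.50 in Slc26a (Slc26a10 over Slc26a2).

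Several of these ratios depended on the length used. With no length correction Car4 over Car8 was 0.78, Car8 over Car11 was 2.63, Car7 over Car13 was 1.98 and Clcn4 over Clcn7 was 1.13, each moved by more than 1.5-fold. Under the same setting Clcn3 over Clcn1 was 2.94, Slc4a8 over Slc4a1 was 2.35, Slc4a3 over Slc4a1 was 7.49, Slc26a10 over Slc26a2 was 1.88 and Slc9a8 over Slc9a9 was 2.36. Slc26a11 no longer exceeded Slc26a2 (-0.64, adjusted p = 0.117). With the longest transcript Car7 over Car13, which was 1.32 ± 0.25 with the union of exons, was 2.23. The exon union of Slc12a7 spans 12669 bases and its longest transcript 6987, and for Slc4a2 these are 8322 and 4264.

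The spread between libraries was tested next. By edgeR, 0 of the 45 members that passed the filter of low counts differed more than genes of their level, against 0.575% of all 12521 genes tested. At an unadjusted p under 0.05 there were 2 of 45, against 5.21% of all genes. These were Slc26a10 (unadjusted p = 0.0279, adjusted p = 0.794) and Slc26a2 (unadjusted p = 0.0319, adjusted p = 0.824). With the dispersion trend of DESeq2 the count was also 0, against 0.543% of all genes. Of the 39 detected members, 29 varied less than 1.5-fold between the highest and the lowest library, against 87.5% of all detected genes. A further 4 varied more than 2-fold, against 2.57% of all detected genes, namely Slc26a2, Slc9a7 (2.24-fold), Clcn5 (2.21-fold) and Slc12a5 (2.16-fold). All 4 stood under 5 CPM on average. The median SD of log2(CPM + 0.1) was 0.21 over the 45 members tested and 0.14 over all genes tested. Among genes of 10 to 31.6 CPM it was 0.24 for the 8 members and 0.14 for all genes, and above 100 CPM it was 0.050 for the 4 members and 0.086 for all genes. At the other end Slc4a3 had a range of 1.04-fold, Car14 of 1.05-fold, Clcn6 of 1.03-fold and Clcn7 of 1.05-fold. Library 1 was highest for 13 detected members, library 2 for 11 and library 3 for 15, against 28.5%, 32.8% and 38.7% of all detected genes.

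**Figure D4:**
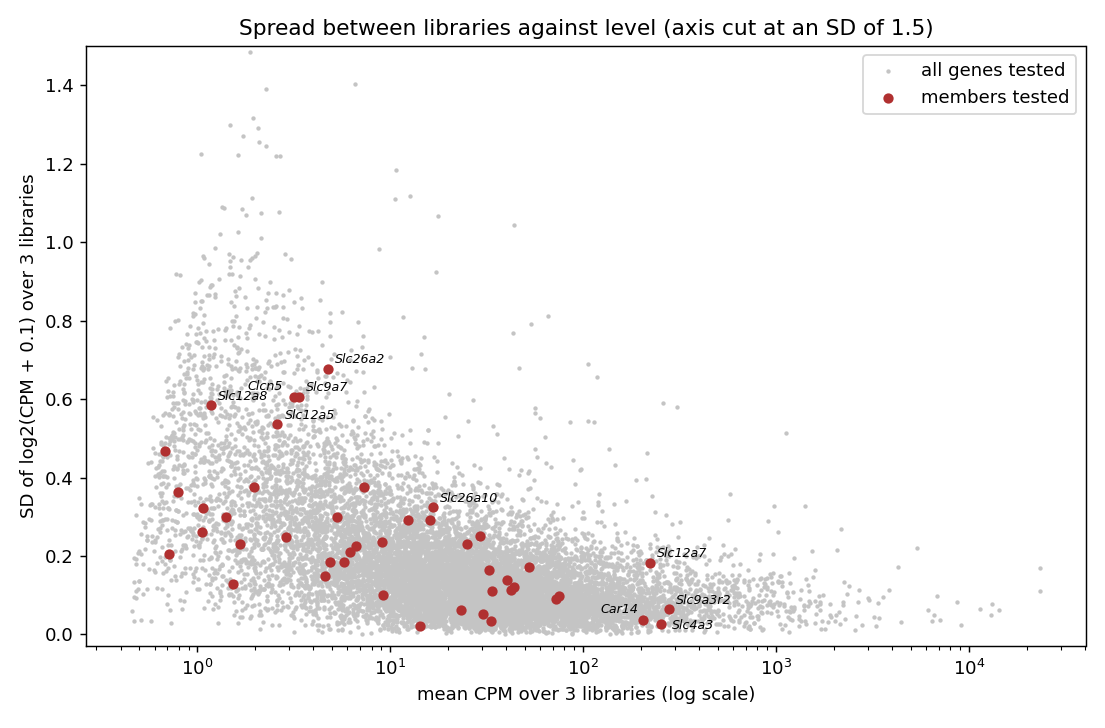
SD of log2(CPM + 0.1) over the 3 libraries against mean CPM (log axis) for all genes tested in grey and the 45 members tested in red, with 6 other genes above the top of the axis. The members lie within the cloud of other genes, with Slc26a2 highest and Slc4a3, Car14 and Slc9a3r2 low at high level.

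Partner proteins were read from lists of related genes. Of the proteins that bind or assist proton and bicarbonate transporters, 14 of 15 in the table were detected, against 71.3% of all genes. Bsg (basigin), which carries lactate transporters to the surface, stood highest in CPM, at 1718 ± 16.8. Slc9a3r2, the proton-lactate cotransporter Slc16a1 (241.3 ± 12.3 CPM) and Tesc (135.4 ± 10.1 CPM) followed. In TPM Tesc (254.9) stood above Slc16a1 (163.4). Tesc (tescalcin) and Chp1 (102.3 ± 6.06 CPM) are calcium-binding partners of sodium/proton exchangers, while their relative Chp2 stood at 1.97 ± 0.27 CPM. Slc9b1 had 1 count in all.

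Of 13 kinases and regulators that govern SLC12 cotransporters 12 were detected, against 71.3% of all genes. In CPM Wnk1, the chloride-sensing kinase, led at 508, 521 and 654, then Sgk1 at 219, 175 and 172. Cab39 (139.3 ± 8.78 CPM) and Cul3 (130.6 ± 7.60 CPM) followed. In TPM the order of these genes was Sgk1 (115.3), Cul3 (80.4), Wnk1 (73.9) and Cab39 (59.1). Stk39 (121.6 ± 7.46 CPM) and Oxsr1 (73.0 ± 3.67 CPM), the kinases that WNK proteins switch on, were both present. Wnk3 had 9, 1 and 8 counts. For the CLC proteins, Ostm1, the partner of Clcn7, stood at 25.02 ± 3.85 CPM and Tmem9b and Tmem9 at 49.5 ± 3.92 and 14.9 ± 0.42 CPM, while Hepacam had 12, 2 and 2 counts and Mlc1 had 0. No gene of these lists differed between libraries by edgeR after adjustment over all genes (0 of 12 kinases and regulators, 0 of 14 transporter partners and 0 of 3 CLC subunits tested), against 0.575% of all genes tested. An unadjusted p under 0.05 was found for 3, 1 and 0 of them, against 5.21% of all genes. With the trend of DESeq2 the counts were also 0, against 0.543%.

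Detection held for 17 of 24 other chloride channel genes, near the share of 71.3% of all genes in the table. Clic4 (644.1 ± 14.4 CPM), Clic5 (431.9 ± 24.1 CPM), the volume-regulated channel subunit Lrrc8a (156.8 ± 10.1 CPM) and Ano10 (104.9 ± 15.6 CPM) stood highest in CPM. In TPM Clic1 (147.1) stood above Lrrc8a (109.2) and Ano10 (53.1). Cftr, the cyclic AMP-regulated chloride channel, had 1 count over the 3 libraries, and Ano2 had 4, 0 and 0. Lrrc8e, Best1, Clca2 and Clic6 were also under 1 CPM. By edgeR 0 of the 19 tested differed after adjustment and 2 had an unadjusted p under 0.05, and DESeq2 called 0, against the same shares of 0.575%, 5.21% and 0.543% of all genes. Among 9 proton-sensing receptors and channels only Gpr4 (23.3 ± 3.23 CPM), known from endothelium, and Gpr65 (2.66 ± 0.24 CPM), known from leukocytes, were detected. The share over all genes was 71.3%. The acid-sensing channels Asic2 and Asic4 had 0 counts, Asic1 had 1, 4 and 4 and Asic3 had 6, 0 and 1.

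The members were also set beside their promoter sequence, which the choice of genes had not used. RefSeq (GRCm38.p6) gave 300-base windows, from 250 bases before the start to 50 after, for 44 of the 61. CG dinucleotides, which read the same on both strands, were counted, and where a gene had several windows the highest count was taken. Detected members had a median of 19.5 CG per window (28 genes) and members below the limit 5.5 (16 genes). All genes of the table with a window showed 22 (9457 genes) and 8.5 (3566 genes) in the same way. At least 10 CG were found in 24 of the 28 detected members and 4 of the 16 others, against 86.2% and 47.0% of all such genes, and no test was made. The motif TATAAA, on either strand and with no other motif searched that could overlap it, was in at least 1 window of 17.9% of detected members and 31.2% of the others (5 genes each), against 8.9% and 14.1% of all such genes. Of all 32851 single windows 13.6% held it.

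The windows of Slc4a3, the highest transporter of the Slc4a family, and Slc26a3, a gene with counts in 1 library alone, show a window with many CG and one with few. Over the members the highest count of CG ran from 0 (Car5a) to 50 (Slc4a4). The windows are from the plus strand, 5′ to 3′, with CG in capitals. That of Slc4a3 (GRCm38.p6, chr1:75546212-75546511) holds 28 CG and that of Slc26a3 (chr12:31437969-31438268) holds 1.
Slc4a3: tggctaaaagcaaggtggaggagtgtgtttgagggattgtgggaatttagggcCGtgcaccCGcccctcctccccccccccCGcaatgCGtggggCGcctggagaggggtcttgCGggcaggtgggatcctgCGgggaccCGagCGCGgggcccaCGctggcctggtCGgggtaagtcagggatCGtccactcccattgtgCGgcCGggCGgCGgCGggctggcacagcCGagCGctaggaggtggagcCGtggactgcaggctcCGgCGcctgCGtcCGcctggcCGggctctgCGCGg
Slc26a3: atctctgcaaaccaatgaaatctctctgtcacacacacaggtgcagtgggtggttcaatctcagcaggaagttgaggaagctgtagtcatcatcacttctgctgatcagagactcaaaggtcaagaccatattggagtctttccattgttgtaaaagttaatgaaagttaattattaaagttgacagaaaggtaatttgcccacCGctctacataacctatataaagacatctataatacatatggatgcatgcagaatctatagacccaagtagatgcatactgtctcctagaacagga
AE3 is known to be made also from a heart-specific start inside the gene, and the gene counts do not separate the 2 starts.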

How the data were processed

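For each of 3 libraries the authors deposited raw counts, whole numbers listed by gene symbol. HISAT2 2.0.4, Bowtie2 2.2.5, RSEM and the build GRCm39 appear, without role or order, per the submitters' processing notes. If RSEM made the counts they may be rounded estimates, which divide reads between similar genes. The sources used here give neither strandedness nor filters.

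CPM used the table total. Exon lengths came from GENCODE M21 (build GRCm38) by symbol, matched for 16077 genes and all 61 members. Exon overlaps on either strand were found in the same annotation, and none of its coordinates are printed or joined to those of another build. Detected meant 1 CPM or more in every library. Variation between libraries was tested with edgeR 4.0.16 (TMM, default filter, trended dispersion, intercept only, deviance against chi-square) and adjusted by Benjamini-Hochberg over all 12521 genes at 0.05. DESeq2 1.42.0 gave the dispersion trend, with a Pearson statistic, as an alternative. Pairs within a family were tested by limma 3.58.1 on log2 ratios of counts per kilobase with 0.5 counts added, two-sided, over all 93 pairs. Pairs share genes and are not independent, and an exact sign-flip test of 3 libraries could not reach 0.05. With a library left out fewer ratios remain per pair, and limma leaned on spread pooled over all pairs by varying amounts. For Car14 over Car13 the limma adjusted p was 4.46e-07 with all libraries, 1.42e-47 without library 1 and 0.00184 without library 3. Passes and losses without a library therefore do not show replication. Both tests were also run on simulated counts whose spread was set by level alone or by a fixed value. That cannot show how they perform on these data. Biopython 1.88 aligned translated reading frames.

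The genes and partner lists were chosen with earlier results of these data known. The functional classes were formed after the values were seen and got no test. Values of 4 members are not reported here, though they count in the totals, class sums and tests; all others are named. From each partner list the 4 genes with the highest mean CPM are named, those under 1 CPM by count, and further genes picked after their values were seen. Members not in the rows analysed were not used here.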

Additional observations from a re-analysis of the deposited data

How the results depend on the processing

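The number of detected members was 39 and stayed within 1.5 times that under every limit tried, at 44 with 0.5 CPM, 32 with 2 CPM, 33 with 1 TPM and 39 to 41 without each library in turn. The count of members that differed between libraries was 0 under all 7 alternatives. Of pairs, 85 of 93 passed in the report, 82 to 84 without each library in turn, 83 with the longest transcript and 82 with no length correction. Where both genes had to reach 5 CPM 36 of 39 pairs passed, and 162 of 183 where 1 count sufficed; both counts follow from the number of pairs. Of the 93 pairs 7 changed direction with the longest transcript, 11 with no length correction, and 3, 2 and 0 without libraries 1, 2 and 3; those of the named pairs follow. With the longest transcript the log2 ratios were -0.062 for Car11/Car2, -0.84 for Clcn6/Clcn3, -0.68 for Slc12a4/Slc12a7 and -0.28 for Slc12a5/Slc12a9. With no length correction they were -0.24 for Car11/Car2, -0.095 for Car2/Car7, -1.49 for Clcn6/Clcn3, -0.64 for Clcn2/Clcn5, -1.56 for Slc12a4/Slc12a7, -0.64 for Slc26a11/Slc26a2 and -0.52 for Slc9a7/Slc9a2. Leaving out each library in turn gave ranges that crossed 0 for Clcn6/Clcn3 (-0.043 to 0.076), Clcn2/Clcn5 (-0.22 to 0.66), Slc12a4/Slc12a7 (-0.079 to 0.14) and Slc12a5/Slc12a9 (-0.39 to 0.27). As shares of TPM in place of counts the families took 0.0369% (Car), 0.00645% (Clcn), 0.0127% (Slc12a), 0.00216% (Slc26a) and 0.0125% (Slc4a), against 0.0308%, 0.0172%, 0.0369%, 0.00346% and 0.0358% of counts, by construction of the length correction. No paired analysis was possible because all libraries belong to 1 group. Members below the detection limit hold few counts, and their order was not read. Genes called as differing between libraries, of all tested, were 72 in the report, 149 with no filter and 19, 48 and 40 without libraries 1, 2 and 3.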
